A study of Mus musculus with 9 samples.

Results

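The gastrocnemius of a mouse leg held still for 7 days was compared with the gastrocnemius of the free leg on the other side. All genes were taken, and a gene was kept when it reached 0.3 TPM in at least 3 of the 6 samples. Of 55487 gene identifiers, 27014 lay above 0 in at least 1 of the 6 samples and 15724 were kept, of which 12702 were protein coding. TPM is a unit of RNA level per transcript length, scaled to the same total in every sample.

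The animals were male C57BL/6 mice with no transgene, 12 weeks old when used. Dis is the leg fixed in a thermoplastic bandage (3 samples), Con is the contralateral leg of immobilized mice (3 samples), and NC is muscle of mice that were never immobilized (3 samples). Con therefore comes from animals that carried a bandage on the other leg, and any change of the whole animal is in Con and Dis alike. Which Con and Dis samples share a mouse is not labelled. Sequencing depth is unknown, because TPM keeps no read totals. The sources differ on 5 points. The series text gives an age of 8 weeks where the methods have mice bought at 8 weeks and kept for 4 more. The methods name the tibialis anterior for RNA where the labels and the results name the gastrocnemius, the bandaged leg is left in one place and right in another, the series text calls Con immobilized where the sample labels call it contralateral, and the library kit has different names.

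Skeletal muscle fibres sense tension through proteins of the Z-disc and of the titin filament, and they keep slow, oxidative gene programs going only while they are used. When a limb is unloaded, protein breakdown by the ubiquitin-proteasome system and by autophagy is known to exceed synthesis, and fibres shrink. The gastrocnemius of the mouse is mostly fast muscle with a small slow part. The defining fibre markers were high in all 6 samples, with Acta1 (skeletal actin) between 22239 and 44067 TPM and Myh4 (the fastest myosin) between 24545 and 32609 TPM. In whole muscle, fewer cells of a type and less RNA per cell cannot be told apart.

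Of the 15724 genes, 2797 (17.8%) were called, meaning an adjusted p below 0.05 in limma on log2(TPM + 0.5). The immobilized leg was higher for 2296 of them (14.6% of all genes tested) and lower for 501 (3.19%). For 5864 genes (37.3%) the Dis and Con samples did not overlap. The median log2 fold change over all genes was 0.20, so gene groups are read here against 0.20 and not against 0. In the same way, counts of list members are to be read against 14.6% higher and 3.19% lower. That shift depends on scaling: with median-ratio size factors it was 0.01 and 435 genes were called higher and 762 lower, with quantile normalization 574 and 666, and with TPM rescaled without the mitochondrial chromosome 1414 and 521. Only Dis and Con in the fit gave 877 calls. Leaving out Con replicate 1 gave 736, Con replicate 2 gave 1250, Con replicate 3 gave 1288 and NC replicate 1 gave 1849.

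Of the 2797 called genes, 489 (330 higher, 159 lower) were called in the same direction in each of 19 alternative fits, which changed the pseudocount, filter, scaling, trend, weights or samples. These are named below as kept in all alternatives, which means these 19 only. Left out of the 19 are the replicate-block fit and the fits chosen after seeing the data, described at the end. A gene that a fit did not test counted as kept in it. Some genes kept in the 19 lost their call in the other fits, such as Eef2 (adjusted p up to 0.0909). Dis replicate 2 stood apart from the other Dis samples: on the first principal component of the 6 samples it lay at 58.2, where Dis replicates 1 and 3 lay at 4.48 and 11.3 and Con between -28.3 and -19.9. Summed markers of macrophages were 591 TPM in it against 99.8 and 103 in the other Dis samples and 143 to 183 in Con. Without Dis replicate 2, 2502 genes were called.

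**Figure D1:**
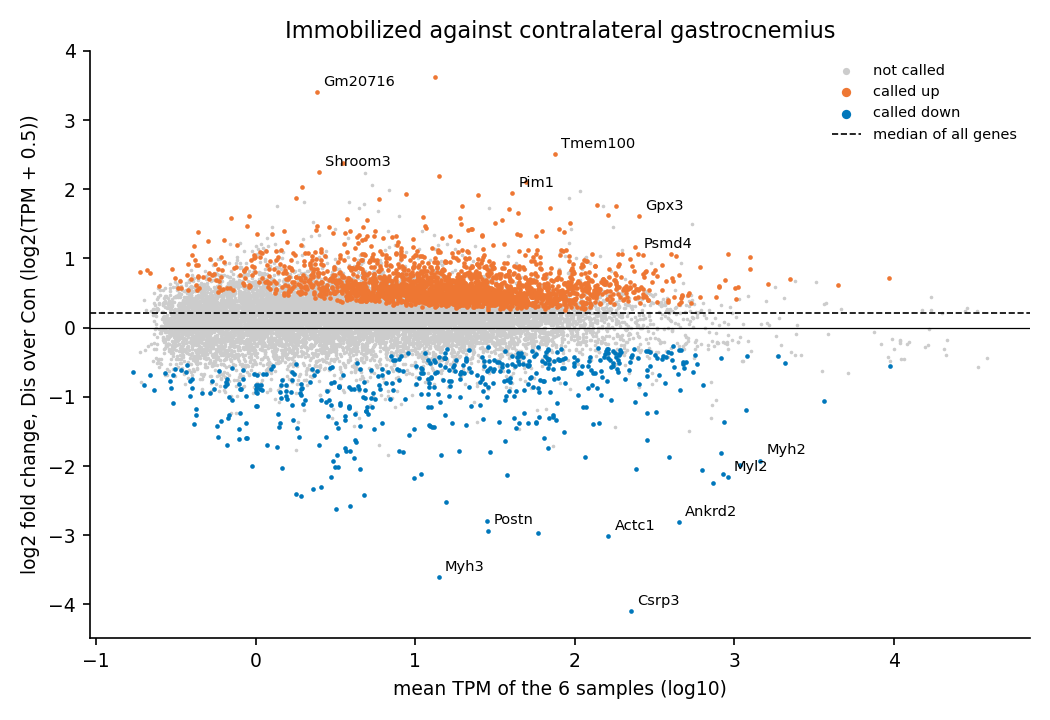
Mean TPM of the 6 Dis and Con samples (log10, x axis) against the log2 fold change of Dis over Con (y axis) for 15724 genes, with called genes in colour and the median of all genes (0.20) as a dashed line. The 2296 genes called up form a band of small changes, while the 501 genes called down reach farther from 0, with Csrp3 at -4.10.

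Called changes were mostly small: the median of their absolute log2 fold changes was 0.57. Only 328 genes differed by at least 2-fold (172 higher and 156 lower), and of those past 4-fold 8 were higher and 29 lower. The genes called down had a median of 23.8 TPM in Con, those called up 13.05 TPM and all genes tested 5.60 TPM. In summed TPM, genes called up went from 89184 in Con to 137489 in Dis, and genes called down from 76444 to 43799.

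Genes of the load-sensing parts of the sarcomere were among the large falls. Csrp3 (muscle LIM protein, a Z-disc protein that is induced by load) was at 275, 526 and 481 TPM in the 3 Con samples and at 14.5, 43.0 and 20.8 TPM in the 3 Dis samples. The log2 fold change was -4.10 ± 0.39 (SE, adjusted p = 0.00246), the largest fall of any called gene with a mean of at least 2 TPM. Naive muscle lay between the legs at 101, 124 and 71.7 TPM. Dis was below NC by 2.01 on the log2 scale (adjusted p = 0.011), while the difference of Con over NC, 2.09, had an unadjusted p of 0.000374 and an adjusted p of 0.268. Between Con and NC, 1 gene of 15724 was called, and 980 had an unadjusted p below 0.05. These contrasts share samples with the comparison of the legs, so their values are given as levels only.

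The promoter of Csrp3 is shown because the heat shock genes described further on fell in the same samples. RefSeq gives 2 start sites for Csrp3 (GRCm38.p6). In the window of 250 bases before and 50 after the second one, on the minus strand at chr7:48843622-48843921, capitals mark a match to the core letters of the heat shock element (GAANNTTC, searched on both strands). The match begins 10 bases before the start. The window of the other start site, at chr7:48848002-48848301, held no match. That other window lies at the upstream end of the gene as annotated here (chr7:48830398-48848033). The window shown lies inside the gene.
Csrp3: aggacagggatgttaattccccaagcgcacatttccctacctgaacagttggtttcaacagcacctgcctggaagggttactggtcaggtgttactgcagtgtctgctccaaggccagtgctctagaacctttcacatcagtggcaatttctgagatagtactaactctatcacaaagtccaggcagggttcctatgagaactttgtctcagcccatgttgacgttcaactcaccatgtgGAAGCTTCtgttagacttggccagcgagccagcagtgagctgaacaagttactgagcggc
A match to these letters was present for 9.04% of the 27025 genes with a window, for 7.09% of the 10594 tested genes that matched by symbol, for 8.45% of those called down and for 14 of the 121 (11.6%) that fell in all alternatives. It is given as a description of the sequence only.

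Ankrd2, an ankyrin-repeat protein of the I-band that responds to stretch, was at 542, 917 and 868 TPM in Con and at 69.2, 221 and 80.6 TPM in Dis. It fell by 2.81 on the log2 scale (SE 0.42, adjusted p = 0.00543), and naive muscle lay at 174, 266 and 149 TPM, so that 1 Dis sample was inside the naive range. Fhl1, a LIM protein that binds the titin spring, had 1197, 1472 and 1440 TPM in Con and 216, 325 and 444 TPM in Dis, with a log2 fold change of -2.11 ± 0.29 (adjusted p = 0.00431). Cryab, a small heat shock protein that protects titin and desmin, had 1439, 2059 and 1738 TPM against 476, 488 and 355 TPM, with -1.99 ± 0.18 (adjusted p = 0.00246). Naive muscle lay between the legs for Cryab, at 671 to 954 TPM, and for Fhl1 at 442 to 911 TPM, where 1 naive sample fell below the highest Dis sample. All 4 of these genes were kept in all alternatives.

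Of 33 measured stretch sensors of the Z-disc and I-band, 13 fell and 5 rose, beside 3.19% and 14.6% of all genes. Among these calls 8 falls and 1 rise were kept in all alternatives, and the median log2 fold change of the 33 was -0.22. Without Con replicate 2 there were 8 falls and 3 rises, without Con replicate 3 or NC replicate 1 there were 3 rises, and without Con replicate 1 there were 2. The rise that was kept is Mypn (myopalladin, a Z-disc anchor of nebulin), at 153, 194 and 168 TPM in Con and 286, 327 and 296 TPM in Dis, a log2 fold change of 0.82 ± 0.11 (adjusted p = 0.00418). Ankrd1, the closest relative of Ankrd2, did not follow it. Its values were 26.5, 33.2 and 33.0 TPM in Con and 16.1, 92.9 and 24.2 TPM in Dis, which overlap (adjusted p = 0.905). In naive muscle Ankrd1 was at 2.91 to 6.36 TPM, below every sample of either leg. Ankrd23 went the opposite way to Ankrd2, at 3245, 3616 and 3641 TPM in Con and 4513, 6736 and 5008 TPM in Dis (0.61 ± 0.16, adjusted p = 0.03). The Ankrd23 call was lost with the 6 samples alone (adjusted p = 0.0858) and with median-ratio scaling (adjusted p = 0.144). Leaving out any 1 Con replicate or NC replicate 1 also lost it.

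**Figure D2:**
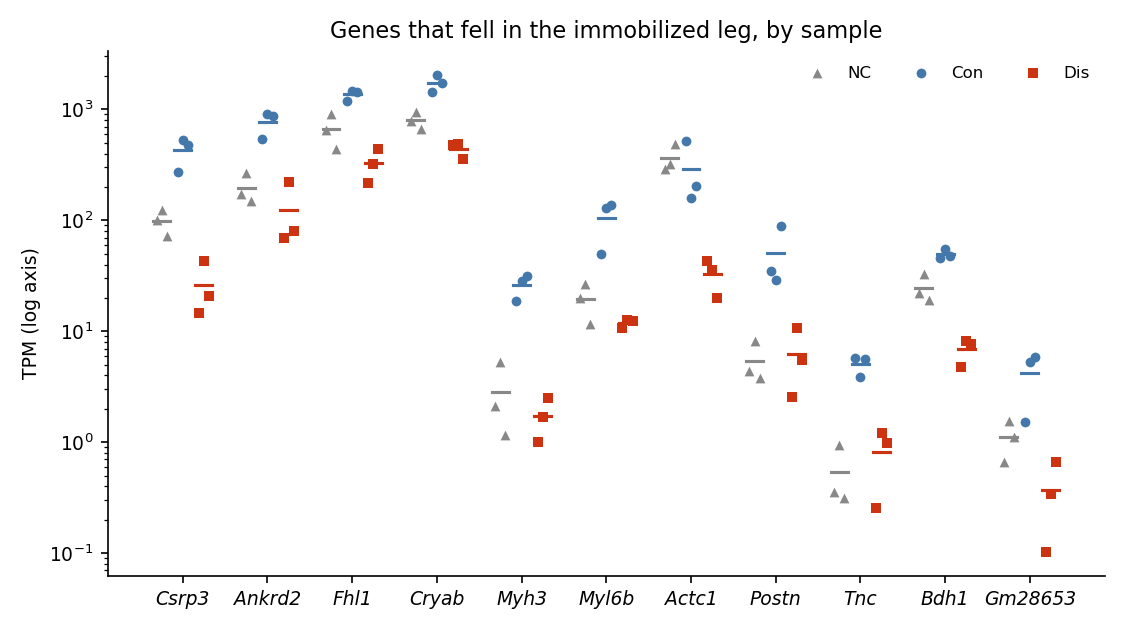
TPM on a log axis in each sample of naive muscle (NC, triangles), the contralateral leg (Con, circles) and the immobilized leg (Dis, squares) for 11 genes that fell, with a bar at each group mean. Con lies above Dis in all 11, and NC lies near Dis for Myh3, Postn and Tnc. For Actc1 the NC mean lies above the Con mean, with overlapping samples.

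Of 8 measured embryonic and cardiac contractile genes 2 fell and none rose, Myh3 and Actc1, both kept in all alternatives. Myh8, the neonatal myosin, was at 207, 235 and 197 TPM in Con and 257, 316 and 225 TPM in Dis, with overlap (adjusted p = 0.125). Myh3, the embryonic myosin heavy chain, was at 18.7, 28.4 and 31.8 TPM in Con and at 1.01, 1.70 and 2.49 TPM in Dis (log2 fold change -3.61 ± 0.43, adjusted p = 0.00337). Naive muscle held 2.14, 5.25 and 1.16 TPM, so the free leg stood apart from both other groups. Myl6b, a slow and embryonic myosin light chain, which is on the list of slow genes, also had Con highest, with 49.6, 129 and 138 TPM in Con, 10.6, 12.7 and 12.3 TPM in Dis and 11.6 to 26.8 TPM in NC (log2 fold change -2.96 ± 0.39, adjusted p = 0.00397). Actc1, the cardiac actin, had another order. It was at 514, 159 and 205 TPM in Con, 43.2, 35.6 and 19.8 TPM in Dis and 290, 324 and 491 TPM in NC. The free leg and naive muscle overlapped, and the immobilized leg was below both (Dis against Con -3.01 ± 0.43, adjusted p = 0.0048).

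A long noncoding RNA that hosts muscle miRNAs also fell. Gm28653 (chr1:20669882-20684298, plus strand, GRCm38) was at 1.53, 5.28 and 5.88 TPM in Con and at 0.103, 0.338 and 0.669 TPM in Dis, with no overlap. Its log2 fold change was -2.33 ± 0.44 (adjusted p = 0.011), kept in all alternatives, and naive muscle held 0.67 to 1.54 TPM. The hairpins of miR-206 and miR-133b lie inside it on the same strand. Mir22hg, the host of miR-22 on chromosome 11, was at 19.9, 25.4 and 30.9 TPM in Con and 32.3, 54.6 and 64.0 TPM in Dis (0.94 ± 0.24, adjusted p = 0.029). That rise was lost when Con replicate 1 or 2 or Dis replicate 2 or 3 was left out (adjusted p up to 0.103), and under median-ratio scaling (adjusted p = 0.0814). The mature sequences from RefSeq (GRCm38.p6) are shown with the seed, bases 2 to 8, in capitals. The 3 seeds differ, and mature miRNAs were not measured here.
mmu-miR-206-3p: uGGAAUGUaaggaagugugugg
mmu-miR-133b-3p: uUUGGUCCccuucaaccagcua
mmu-miR-22-3p: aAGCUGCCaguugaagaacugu

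Slow and intermediate contractile genes fell as a group. Of 14 measured members, 7 fell and 1 rose, with 4 falls kept in all alternatives and a median log2 fold change of -1.56. Without Con replicate 2 or Con replicate 3, 4 fell. Myl2, the slow regulatory light chain, was at 802, 1791 and 1893 TPM in Con and 198, 380 and 407 TPM in Dis (-2.16 ± 0.40, adjusted p = 0.0103). Casq2, the slow calsequestrin that stores calcium in the reticulum, is on the list of triad and calcium store genes and not among the 14. It was at 40.2, 77.8 and 67.1 TPM against 12.1, 11.5 and 16.4 TPM (-2.13 ± 0.28, adjusted p = 0.00397). Of the 25 measured members of that other list 2 fell and 4 rose, beside 3.19% and 14.6% of all genes. Myh7, the slow myosin, was at 400, 1356 and 1324 TPM in Con and 183, 731 and 602 TPM in Dis, which overlap because Con replicate 1 was low (adjusted p = 0.248). Con replicate 1 was the lowest Con sample for Myl2, Casq2 and Myh7 alike.

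Myosin heavy chain use is clearer as a share of the 4 adult isoforms. Myh2, the myosin of fast oxidative fibres, made up 8.43, 6.49 and 7.21% in Con and 1.56, 1.62 and 1.93% in Dis. The groups do not overlap (exact permutation test, two-sided, n = 3 against 3, p = 0.1, the smallest p this design can give). Naive muscle held 3.11 to 6.97%. As a level, Myh2 fell by 1.92 on the log2 scale (SE 0.28, adjusted p = 0.00538), kept in all alternatives. The share of Myh7 was 1.29, 4.14 and 4.42% in Con and 0.565, 1.99 and 1.59% in Dis (exact permutation test, n = 3 against 3, p = 0.3), with 1 Con sample inside the Dis range. Myh4 averaged 83.3% in Con and 88.7% in Dis and Myh1 6.00% and 8.24%, with overlapping samples for both. Reads of Myh1, Myh2 and Myh4 can be hard to tell apart, since these genes are close copies.

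**Figure D3:**
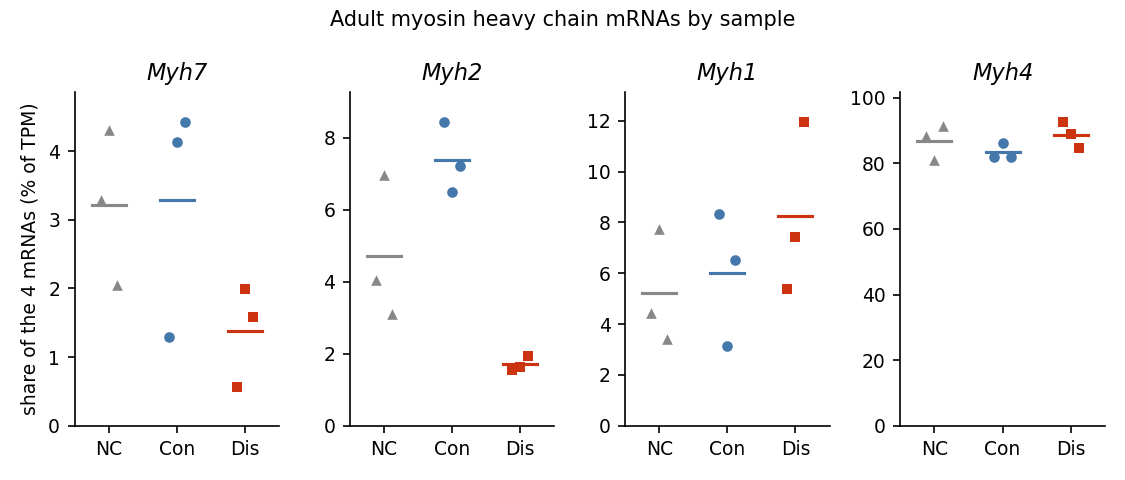
Share of each adult myosin heavy chain mRNA in the summed TPM of the 4 (percent, y axis) for each sample of NC, Con and Dis, with a bar at the group mean. Only for Myh2 do the Dis samples (1.56 to 1.93%) lie below every Con and NC sample.

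Among 17 fast contractile genes 2 rose and 1 fell, beside 14.6% and 3.19% of all genes, and none was kept in all alternatives. Their median of 0.23 lay near that of all genes and at 0.00 with median-ratio scaling. With 1 library left out there were 1 to 4 rises (4 without Dis replicate 2, 1 without Con replicate 1, Con replicate 3, Dis replicate 1 or NC replicate 1) and 0 to 2 falls. Actn3, the fast alpha-actinin, gained the most TPM of any called gene (5912, 8689 and 6638 in Con, 13744, 11292 and 9909 in Dis, log2 fold change 0.72 ± 0.19, adjusted p = 0.0313). That call was lost with Dis and Con alone (adjusted p = 0.0845), with median-ratio scaling (adjusted p = 0.221) and without Con replicate 1, Con replicate 3, Dis replicate 1 or NC replicate 1. The 1 fall was in Myl1, which lost the most TPM of any called gene. It was at 11217, 11417 and 11327 TPM in Con and 8340, 6947 and 8014 TPM in Dis (-0.55 ± 0.15, adjusted p = 0.035). The Myl1 call was lost with Dis and Con alone (adjusted p = 0.0795) and with quantile normalization (adjusted p = 0.242). Leaving out any 1 Con replicate, Dis replicate 2, Dis replicate 3 or NC replicate 1 also lost it. Neb (nebulin), at 1209, 1366 and 1288 TPM against 1951, 1919 and 2119 TPM, and Ryr1 (the calcium release channel), at 789, 904 and 746 TPM against 1251, 1159 and 1207 TPM, rose by 0.63 ± 0.11 and 0.57 ± 0.10 on the log2 scale (adjusted p = 0.00898 and 0.00913). Within the fits counted for kept in all alternatives, both calls were lost with median-ratio scaling only (adjusted p = 0.105 and 0.143). In the fits left out of that count, the adjusted p of Neb reached 0.193 and that of Ryr1 0.273, so the calls were lost there too.

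Nuclear genes of oxidative phosphorylation were lower. Over the 5 complexes, 37 of 80 measured members fell and 1 rose, where 3.19% of all genes fell, and 76 had a log2 fold change below 0. Their median was -0.32, and 11 of the falls were kept in all alternatives. With median-ratio scaling 55 fell, with Dis and Con alone 14, without Con replicate 1, 12, without Con replicate 2, 24, and without Con replicate 3, 17. Complex III with cytochrome c had the largest share, 8 of 10, though 2 without Con replicate 1, 3 without Con replicate 3, 4 without Con replicate 2 and 5 without Dis replicate 2, NC replicate 1 or NC replicate 3. Cycs (cytochrome c) was at 173, 152 and 168 TPM in Con and 106, 79.8 and 92.5 TPM in Dis (-0.83 ± 0.11, adjusted p = 0.00397). Ndufb5, a complex I subunit, was at 224, 219 and 237 TPM against 156, 129 and 153 TPM (-0.64 ± 0.09, adjusted p = 0.00457). The muscle form of a cytochrome oxidase subunit, Cox7a1, had 246, 212 and 220 TPM in Con and 131, 77.3 and 129 TPM in Dis (-1.04 ± 0.18, adjusted p = 0.00848). Dis replicate 2 was the lowest sample for all 3 of these genes, and naive muscle was at the level of Con or above it for Cox7a1 (263 to 275 TPM).

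The 13 mRNAs made by the mitochondrial chromosome itself all had log2 fold changes below 0, from -0.49 to -0.17, and none was called (lowest adjusted p = 0.063). None was called with median-ratio scaling, quantile normalization or the 6 samples alone either, while 2 were with a filter at 1 TPM, 1 without the mean trend and 3 without Dis replicate 1. Together they were 22.6, 18.9 and 20.8% of TPM in Con and 18.5, 13.3 and 18.6% in Dis (exact permutation test, n = 3 against 3, p = 0.1, the smallest possible).

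Genes for the use of ketone bodies, fat and lactate were lower. Bdh1, the first enzyme of ketone body use, was at 45.8, 55.2 and 48.1 TPM in Con and 4.76, 8.16 and 7.71 TPM in Dis, a log2 fold change of -2.80 ± 0.23 (adjusted p = 0.00234). Oxct1, which activates the ketone body for burning, was at 228, 175 and 164 TPM against 92.2, 59.97 and 64.8 TPM (-1.39 ± 0.18, adjusted p = 0.00397). These were the 2 members called of 7 measured in that list, and both were kept in all alternatives. Bdh1 in naive muscle was 19.1 to 33.0 TPM, below every Con and above every Dis sample, while Oxct1 in naive muscle (161 to 204 TPM) was at the level of Con.

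Ckmt2, the mitochondrial creatine kinase of muscle, was at 1453, 1064 and 1139 TPM in Con and 297, 165 and 331 TPM in Dis (-2.25 ± 0.25, adjusted p = 0.00268). Fabp3, which carries fatty acids in oxidative fibres, was at 874, 1240 and 936 TPM against 247, 286 and 198 TPM (-2.06 ± 0.23, adjusted p = 0.00268). Idh2 (a citric acid cycle enzyme) and Ldhb (the lactate dehydrogenase subunit of oxidative tissue) fell by 1.22 and 1.23 on the log2 scale, with adjusted p of 0.00574 and 0.00543. All 4 were kept in all alternatives. Of 23 genes of fatty acid oxidation 6 fell and 1 rose, and in the citric acid cycle 7 of 24 fell and 1 rose. Over all genes 3.19% fell and 14.6% rose. In each list 2 falls were kept in all alternatives. Without Con replicate 1 both lists had 2 falls. Without Con replicate 2 they had 3 and 4, without Con replicate 3 they had 3 and 2, and without Dis replicate 2 the citric acid cycle had 4. Of 32 glycolysis and glycogen genes 3 fell, 2 of them kept in all alternatives, and 3 rose, beside 3.19% and 14.6% of all genes. With any 1 Con sample, Dis replicate 1 or Dis replicate 3 left out none rose, without any 1 NC sample 1 rose, without Dis replicate 2, 5 rose, and without Dis replicate 3, 5 fell.

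Of 24 regulators of mitochondrial genes 6 fell and 4 rose, beside 3.19% and 14.6% of all genes, and none was kept in all alternatives. Without Con replicate 1 none was called. The falls were 3 without Con replicate 2 or Con replicate 3, and the rises were none without Con replicate 2, Con replicate 3 or Dis replicate 3, 1 without NC replicate 1 or NC replicate 3 and 2 without Dis replicate 2 or NC replicate 2. Ppargc1a (PGC-1alpha, the coactivator of mitochondrial genes) was at 7.69, 6.00 and 8.17 TPM in Con and 7.65, 3.95 and 9.77 TPM in Dis, which overlap (log2 fold change -0.10 ± 0.27, adjusted p = 0.812). Its partner receptor Esrra was at 94.1, 82.1 and 87.9 TPM against 58.8, 49.4 and 66.5 TPM, a fall of 0.60 ± 0.11 (adjusted p = 0.011) that was lost without Con replicate 1. Perm1, a muscle target of both, was at 144, 118 and 110 TPM against 47.1, 22.8 and 73.3 TPM (-1.51 ± 0.35, adjusted p = 0.0204), lost without Con replicate 1 or Con replicate 2 and with the 6 samples alone (adjusted p = 0.0603). Esrrb and Esrrg, receptors related to Esrra, fell by 1.12 ± 0.29 and 1.04 ± 0.29 (adjusted p = 0.0295 and 0.0384). Both calls were lost without any 1 of the Con replicates, Dis replicate 1 or Dis replicate 3. Esrrg was also lost without Dis replicate 2 or NC replicate 1, and Esrrb with the 6 samples alone (adjusted p = 0.0537). Sirt3, a mitochondrial deacetylase, fell by 0.95 ± 0.21 (adjusted p = 0.0175), lost without Con replicate 1 and with the 6 samples alone (adjusted p = 0.0576).

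**Figure D4:**
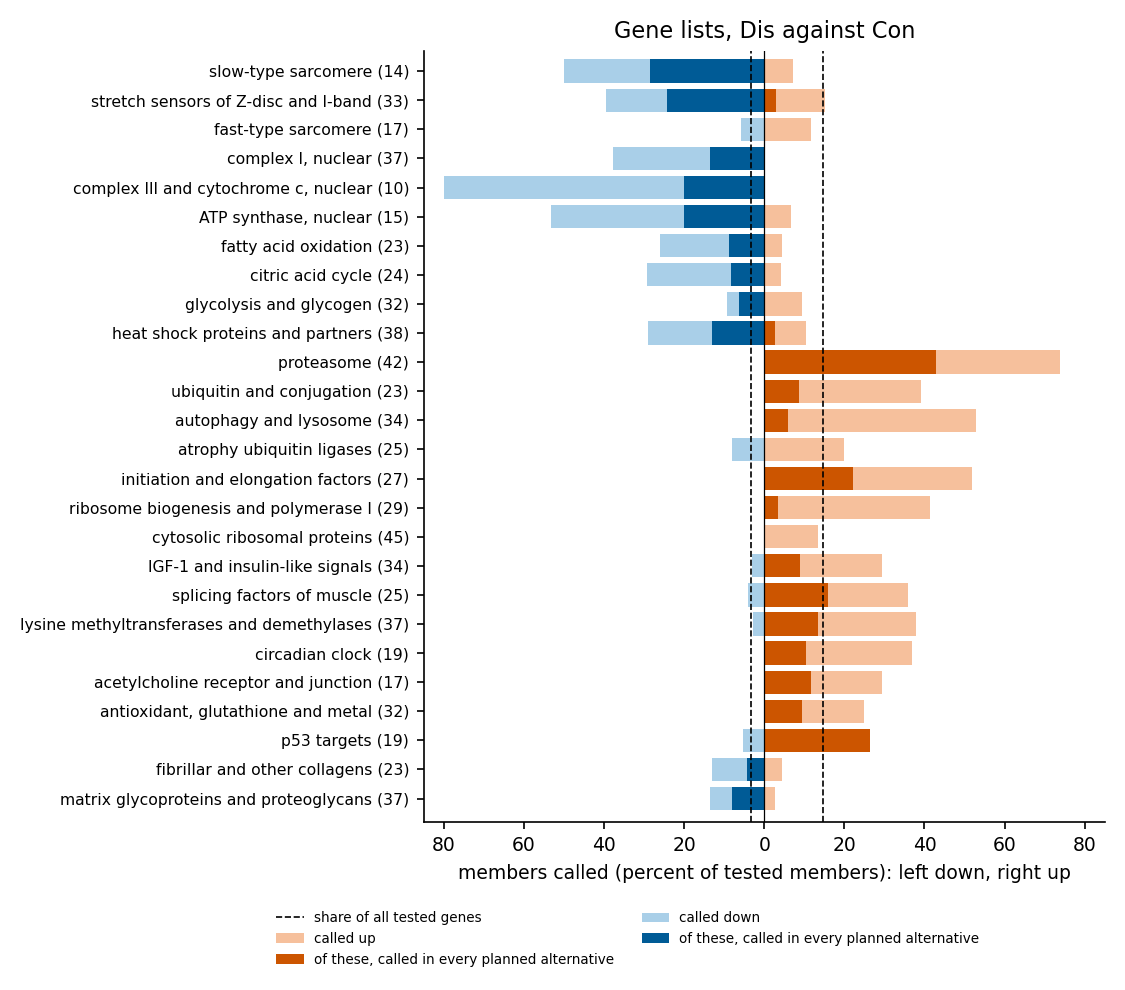
Percent of the measured members of 26 gene lists called down (left) and called up (right), with the number measured in parentheses, darker parts for calls kept in all 19 alternatives and dashed lines at the shares of all genes (3.19% down, 14.6% up). The proteasome has 31 of 42 members called up, and the list of complex III with cytochrome c has 8 of 10 called down.

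The proteasome, the complex that breaks down ubiquitin-tagged proteins, rose broadly. Of 42 measured subunits and partners 31 rose and none fell, against 14.6% of all genes that rose, and 18 rises were kept in all alternatives. The median log2 fold change was 0.57, or 0.33 with median-ratio scaling, which left 18 called. Without Con replicate 1, 19 were called, and without Dis replicate 2, 29. In the 19S cap all 6 ATPase subunits rose (0.61 to 0.79), each kept in all alternatives, as did 11 of 12 non-ATPase members. In the 20S core 6 of 7 alpha subunits and 7 of 10 beta subunits rose. The 3 beta members not called were Psmb8, Psmb9 and Psmb10, the subunits of the immunoproteasome, which were named after their values were seen. Of the 7 activators and assembly factors 1 was called.

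Psmd2, a scaffold of the 19S base, was at 135, 161 and 143 TPM in Con and 280, 373 and 336 TPM in Dis (1.16 ± 0.12, adjusted p = 0.00268). Psmd4, the ubiquitin receptor, was at 148, 164 and 165 TPM against 253, 436 and 327 TPM (1.06 ± 0.17, adjusted p = 0.00629). Psma7, an alpha subunit of the core, was at 122, 133 and 137 TPM against 210, 297 and 240 TPM (0.91 ± 0.12, adjusted p = 0.00397). For all 3 the naive values (136 to 149, 145 to 148 and 113 to 122 TPM) lay close to Con, and Dis replicate 2 was the highest sample. The whole list was 0.380% of TPM in Con and 0.594% in Dis (SD 0.0255 and 0.075, n = 3, exact permutation test, p = 0.1, the smallest possible).

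Ubb, a gene that encodes ubiquitin itself, rose from 748, 865 and 841 TPM in Con to 1270, 2248 and 1583 TPM in Dis (1.02 ± 0.18, adjusted p = 0.00919). The ubiquitin ligases that define atrophy were less uniform. Fbxo32 (atrogin-1) was at 65.9, 113 and 54.7 TPM in Con and 177, 486 and 190 TPM in Dis (1.76 ± 0.39, adjusted p = 0.018), and its call was lost without Con replicate 1 or Con replicate 3 and with the 6 samples alone (adjusted p = 0.0565). Trim63 (MuRF1) was at 191, 382 and 199 TPM against 492, 1623 and 406 TPM. Those groups do not overlap, the adjusted p was 0.0538, and Dis replicate 2 was far above the other Dis samples. Of 25 ligases on the list 5 rose and 2 fell, beside 14.6% and 3.19% of all genes, and none was kept in all alternatives. The 5 rises were 1 without Con replicate 1 or Con replicate 3, 3 without Con replicate 2 and 9 without Dis replicate 1, and no fall was left without Con replicate 2, Con replicate 3 or Dis replicate 1.

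Autophagy and lysosome genes had 18 of 34 members called up and none down, beside 14.6% and 3.19% of all genes. All 34 log2 fold changes were above 0. Their median was 0.41, beside 0.20 for all genes. With median-ratio scaling it was 0.18, beside 0.01 for all genes. The count depended on settings: 2 rises were kept in all alternatives, 3 were called with median-ratio scaling, 5 without Con replicate 1, 6 without Con replicate 3, 8 without Con replicate 2 and 11 without NC replicate 3. Map1lc3a, an LC3 protein of the autophagosome membrane, was kept, at 185, 202 and 203 TPM in Con and 384, 323 and 310 TPM in Dis (0.78 ± 0.10, adjusted p = 0.00397). Ctsl (cathepsin L) was at 48.9, 48.9 and 51.7 TPM against 76.8, 243 and 85.2 TPM, without overlap and not called (adjusted p = 0.0539). Among calpains, the calcium-activated proteases, Capns1 (the shared small subunit) rose by 0.66 ± 0.12 and Capn3 (the titin-bound muscle calpain) fell by 0.46 ± 0.08 (adjusted p = 0.00998 and 0.00727), both kept in all alternatives.

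**Figure D5:**
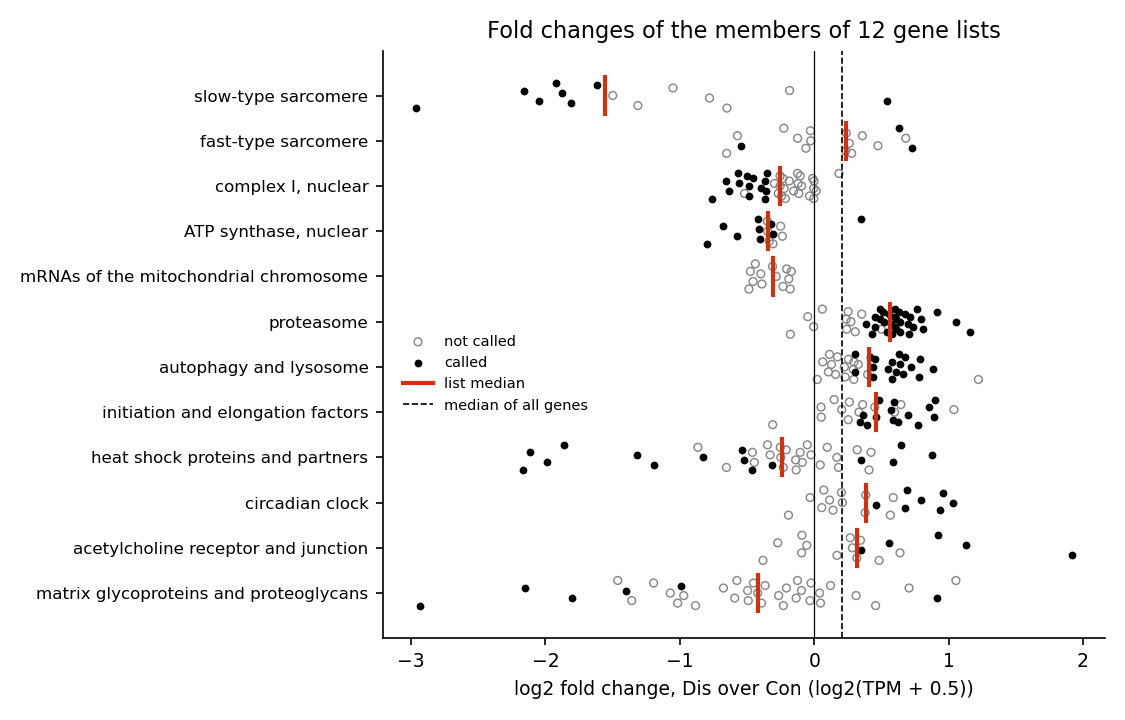
Log2 fold change (x axis) of each measured member of 12 gene lists, filled where called and open where not, with the list median in red and the median of all genes (0.20) as a dashed line. Proteasome members lie together around 0.57, the slow sarcomere around -1.56, and the 13 mitochondrial mRNAs lie between -0.49 and -0.17 with none called.

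Of 27 initiation and elongation factors 14 rose and none fell, against 14.6% of all genes that rose, 6 of them kept in all alternatives, with a median of 0.46. Without Con replicate 1, 8 rose, and with median-ratio scaling 6 rose and 1 fell. Eef2, which moves the ribosome along the mRNA, was at 803, 965 and 908 TPM in Con and 1345, 2053 and 1497 TPM in Dis (0.85 ± 0.15, adjusted p = 0.00927). Eef2k, the kinase that switches Eef2 off, was at 22.9, 26.9 and 25.9 TPM against 45.1, 40.004 and 45.3 TPM (0.77 ± 0.11, adjusted p = 0.00423). Both were kept in all alternatives. Eif4e, the cap-binding factor, was at 31.1, 30.8 and 32.5 TPM in Con and 26.6, 22.6 and 26.9 TPM in Dis, lower without overlap and short of the threshold (adjusted p = 0.0548). With median-ratio scaling it passed, with a log2 fold change of -0.54 (adjusted p = 0.0325). Of the 45 cytosolic ribosomal proteins 6 rose, a share at the level of all genes, none kept in all alternatives and none with median-ratio scaling. That count ranged from 1 without Con replicate 1 to 15 without Dis replicate 3, with 2 without Con replicate 2 and 3 without Con replicate 3, Dis replicate 2 or NC replicate 1.

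Of 34 genes of IGF-1 and insulin-like signals 10 rose and 1 fell, beside 14.6% and 3.19% of all genes. Among the rises 3 were kept in all alternatives. The rises were 5 without Con replicate 1, 4 without Con replicate 3 and 6 without any 1 NC sample. The fall, in the IGF carrier Igfbp3 (-0.58 ± 0.17, adjusted p = 0.042), was lost when any 1 sample other than Dis replicate 3 was left out. Deptor, an inhibitor of mTOR, was at 17.9, 22.2 and 18.1 TPM in Con and 41.4, 35.2 and 33.1 TPM in Dis (0.90 ± 0.13, adjusted p = 0.00457). Stat5a, which carries the growth hormone signal, was at 8.27, 9.18 and 8.27 TPM against 17.3, 21.8 and 18.6 TPM (1.12 ± 0.13, adjusted p = 0.00337). Igf1 was at 7.09, 3.10 and 5.78 TPM in Con and 3.47, 6.33 and 4.12 TPM in Dis, with overlap (adjusted p = 0.737). Of 27 genes of myostatin, activin and TGF-beta signals 6 rose and 1 fell, beside those same shares of all genes. Among the rises 2 were kept in all alternatives. The rises were 3 without Con replicate 1 and 2 without Con replicate 3, the fall was lost without either, and 3 fell without Dis replicate 2. Tgfbr1 and Tgfbr3, receptors of the TGF-beta family, rose by 0.94 ± 0.15 and 1.02 ± 0.18 on the log2 scale (adjusted p = 0.00647 and 0.00842), and Mstn (myostatin), at 31.2, 52.4 and 39.7 TPM against 52.3, 50.9 and 53.5 TPM, was not called (adjusted p = 0.126). The 4 rises named here were kept in all alternatives.

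RNA-binding proteins that respond to cold were among the clearest rises. Rbm3 was at 52.8, 84.7 and 99.2 TPM in Con and 163, 287 and 279 TPM in Dis (1.62 ± 0.26, adjusted p = 0.00643). Cirbp was at 43.3, 47.0 and 51.7 TPM against 100.2, 124 and 152 TPM (1.38 ± 0.15, adjusted p = 0.00268). Naive muscle held 74.4 to 79.0 TPM of Rbm3 and 53.6 to 63.6 TPM of Cirbp, below every Dis sample. Of 25 splicing factors and RNA-binding proteins of muscle 9 rose and 1 fell, beside 14.6% and 3.19% of all genes. Among the rises 4 were kept in all alternatives, including Srsf5 and Rbfox1 (0.90 ± 0.11 and 0.81 ± 0.15, adjusted p = 0.00343 and 0.0102). Without Con replicate 1 or Con replicate 2, 4 rose.

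Chaperones, by contrast, were mostly lower. Of 38 heat shock proteins and partners 11 fell and 4 rose, beside 3.19% and 14.6% of all genes. Their median log2 fold change was -0.24, and 5 falls were kept in all alternatives. There were 5 falls and 1 or 2 rises without any 1 of the Con replicates, 7 without Dis replicate 3 and 19 with median-ratio scaling. The inducible Hsp70 genes fell most. Hspa1a was at 13.6, 22.9 and 17.7 TPM in Con and 3.73, 4.41 and 3.03 TPM in Dis (-2.12 ± 0.26, adjusted p = 0.00343), and Hspa1b at 13.7, 19.5 and 16.1 TPM against 2.70, 3.84 and 3.21 TPM (-2.17 ± 0.20, adjusted p = 0.00246). Naive muscle held 4.88 to 9.36 TPM of Hspa1a and 4.42 to 7.44 TPM of Hspa1b, between the legs. The 2 genes are near-identical copies, so that reads may be split between them. Dnajb6, a partner chaperone of the Z-disc, went the other way, from 65.7, 71.4 and 65.4 TPM to 103, 121 and 94.9 TPM (0.65 ± 0.11, adjusted p = 0.00728).

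The promoters of the Hsp70 pair are shown because both genes fell by nearly the same amount. The windows from RefSeq (GRCm38.p6, minus strand, chr17:34972107-34972406 for Hspa1a and chr17:34959189-34959488 for Hspa1b) agree at 296 of 300 bases. Capitals mark the 1 match to the core heat shock element letters GAANNTTC in each window, which begins 104 bases before the start.
Hspa1a: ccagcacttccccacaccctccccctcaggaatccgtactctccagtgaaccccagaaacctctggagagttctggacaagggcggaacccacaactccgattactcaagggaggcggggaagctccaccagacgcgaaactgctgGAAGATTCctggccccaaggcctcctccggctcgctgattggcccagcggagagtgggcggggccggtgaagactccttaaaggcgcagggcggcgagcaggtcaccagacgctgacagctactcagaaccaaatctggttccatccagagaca
Hspa1b: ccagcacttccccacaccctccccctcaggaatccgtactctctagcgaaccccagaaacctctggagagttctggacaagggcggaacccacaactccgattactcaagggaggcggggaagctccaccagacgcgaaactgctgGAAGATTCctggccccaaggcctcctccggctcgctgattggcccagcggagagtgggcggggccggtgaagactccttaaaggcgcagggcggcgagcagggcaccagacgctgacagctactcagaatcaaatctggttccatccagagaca
The match lies at the same position in both windows, and the shares of genes with such a match are those given for Csrp3.

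Stress and early response genes moved in both directions. Jun (a subunit of AP-1) was at 43.4, 41.0 and 42.7 TPM in Con and 98.5, 152 and 99.99 TPM in Dis (1.42 ± 0.18, adjusted p = 0.00397). Atf3, a stress factor that pairs with Jun, fell from 5.23, 7.91 and 7.18 TPM to 1.54, 1.78 and 2.02 TPM (-1.66 ± 0.26, adjusted p = 0.00602). Both were kept in all alternatives. Pim1, a kinase that promotes survival, was at 12.5, 18.6 and 17.6 TPM in Con and 89.9, 50.8 and 54.6 TPM in Dis (1.94 ± 0.28, adjusted p = 0.00464), while naive muscle held 16.9 to 32.5 TPM. Gpx3, the secreted glutathione peroxidase, rose from 127, 118 and 118 TPM to 316, 570 and 280 TPM (1.61 ± 0.26, adjusted p = 0.00658). The metallothioneins Mt1 and Mt2 reached 795 and 764 TPM in Dis replicate 2 alone and were not called (adjusted p = 0.304 and 0.299).

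A promoter window of Pim1 is shown because it held the FoxO element (GTAAACA, both strands), and FoxO factors are known drivers of atrophy genes. Of the 27025 genes with a window 4.05% held a match, as did 3.21% of the tested genes, 3.44% of those called up and 5.56% of the 252 that rose in all alternatives and had a window. Foxo1 and Foxo3 were not called. The match, in capitals, begins 70 bases before the start in the window chr17:29492835-29493134 (plus strand, GRCm38.p6). RefSeq gives another start for Pim1, and its window, chr17:29490535-29490834, held no match. That other window lies at the upstream end of the gene as annotated here (chr17:29490753-29496112). The window shown lies inside the gene.
Pim1: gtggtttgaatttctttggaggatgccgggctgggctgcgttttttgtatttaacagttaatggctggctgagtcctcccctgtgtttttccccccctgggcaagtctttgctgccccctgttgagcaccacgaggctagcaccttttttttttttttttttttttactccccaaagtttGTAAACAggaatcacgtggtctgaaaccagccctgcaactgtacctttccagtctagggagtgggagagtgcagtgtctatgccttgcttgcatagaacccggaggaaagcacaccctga

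Some genes tied to p53 rose. Of 19 measured on that list 5 rose and 1 fell, beside 14.6% and 3.19% of all genes. All 5 rises were kept in all alternatives, and the fall was lost without any 1 of the Con replicates. Eda2r, a receptor of the TNF family, was at 6.83, 11.1 and 10.9 TPM in Con and 25.3, 43.6 and 18.8 TPM in Dis (1.5 ± 0.28, adjusted p = 0.0111). Bbc3 (Puma, which promotes cell death) was at 1.08, 1.53 and 1.46 TPM against 3.08, 3.22 and 3.16 TPM (0.98 ± 0.14, adjusted p = 0.00525). Rb1 and E2f2, which act on each other at the start of DNA synthesis, rose from 6.04 to 6.58 TPM up to 13.5 to 15.8 TPM and from 2.11 to 2.65 TPM up to 5.44 to 7.28 TPM. Cdkn1a (p21), the best known target, was at 16.5, 22.6 and 19.4 TPM in Con and 18.04, 32.0 and 20.2 TPM in Dis, with overlap (adjusted p = 0.478).

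At the nerve-muscle junction, subunits of the acetylcholine receptor rose. Chrnb1 was at 28.7, 39.5 and 41.4 TPM in Con and 79.7, 95.9 and 65.5 TPM in Dis (1.13 ± 0.18, adjusted p = 0.00641), and Chrne, the adult subunit, at 17.8, 15.2 and 17.2 TPM against 30.8, 28.8 and 37.4 TPM (0.92 ± 0.12, adjusted p = 0.00397). Both were kept in all alternatives. Chrna1 was at 6.65, 8.83 and 8.85 TPM against 23.3, 84.99 and 16.0 TPM, a larger rise (1.92 ± 0.49, adjusted p = 0.0287) that was lost without any 1 of the Con replicates and with the 6 samples alone (adjusted p = 0.0796). Of 17 junction genes 5 rose and none fell, beside 14.6% and 3.19% of all genes. There were 2 rises without Con replicate 1 or Con replicate 3 and 3 without Con replicate 2 or Dis replicate 3. Hdac4, the repressor that nerve loss is known to raise, was at 11.2, 12.1 and 9.05 TPM in Con and 25.3, 30.2 and 23.2 TPM in Dis (1.25 ± 0.14, adjusted p = 0.00268). Myog (myogenin) was at 5.96, 8.40 and 11.5 TPM against 11.5, 24.8 and 8.97 TPM, which overlap (adjusted p = 0.182).

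Excitability genes moved one by one. Kcnq5, a potassium channel, was at 4.40, 3.33 and 4.01 TPM in Con and 9.77, 11.3 and 10.2 TPM in Dis (1.31 ± 0.14, adjusted p = 0.00268). Slc12a2, the sodium-potassium-chloride cotransporter, was at 16.5, 17.6 and 17.8 TPM against 37.7, 37.2 and 32.4 TPM (1.02 ± 0.10, adjusted p = 0.00246). Both have tight groups far apart, with naive values of 3.90 to 4.89 and 17.1 to 19.6 TPM beside Con. Clcn1, the main chloride channel of muscle, was at 109, 114 and 112 TPM in Con and 134, 84.2 and 172 TPM in Dis and was not called (adjusted p = 0.618). Cdh15 (M-cadherin), an adhesion protein of satellite cells and fibres, rose from 11.97, 14.7 and 13.3 TPM to 20.97, 35.6 and 32.8 TPM (1.1 ± 0.19, adjusted p = 0.00789), while Pax7, which defines satellite cells, was at 0.966 to 0.994 TPM in Con and 1.19 to 1.42 TPM in Dis (adjusted p = 0.233).

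Clock and chromatin genes rose in part. Bhlhe40, a repressor of the clock, was at 73.6, 85.8 and 81.2 TPM in Con and 149, 149 and 171 TPM in Dis (0.96 ± 0.12, adjusted p = 0.00397), with naive muscle at 88.5 to 120 TPM between the legs. The core activator Arntl was at 10.9, 10.9 and 8.02 TPM in Con and 9.33, 14.02 and 16.7 TPM in Dis, with overlap (adjusted p = 0.285), and the output gene Dbp overlapped too (adjusted p = 0.565). Of 19 clock genes 7 rose and none fell, beside 14.6% and 3.19% of all genes. Among the rises 2 were kept in all alternatives, and 3 rose without Con replicate 1 and 3 with median-ratio scaling. The time of day of collection was not given in the sources used here. Sgk1, a kinase induced by glucocorticoids, rose from 132, 192 and 129 TPM to 271, 304 and 315 TPM (0.99 ± 0.15, adjusted p = 0.00602), while Fkbp5, another such target, was at 16.5, 20.8 and 19.5 TPM against 14.1, 26.8 and 25.2 TPM (adjusted p = 0.613). Of 37 lysine methyltransferases and demethylases 14 rose and 1 fell, beside 14.6% and 3.19% of all genes. Among the rises 5 were kept in all alternatives, including Ezh1 (0.82 ± 0.11, adjusted p = 0.00418). There were 7 rises without Con replicate 1 or Con replicate 2, 8 without Con replicate 3 and 9 without Dis replicate 3.

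Some matrix genes were lower in the immobilized leg. Postn (periostin, a matrix protein of growing and healing tissue) was at 34.8, 28.7 and 88.7 TPM in Con, 2.57, 10.7 and 5.50 TPM in Dis and 3.77 to 8.14 TPM in NC (Dis against Con -2.93 ± 0.53, adjusted p = 0.00942). Tnc (tenascin-C), which is known to follow load in tendon and muscle, was at 5.76, 3.90 and 5.68 TPM in Con, 0.257, 1.21 and 0.983 TPM in Dis and 0.317 to 0.937 TPM in NC (-2.16 ± 0.33, adjusted p = 0.00606). For both, the free leg stood above the other groups, whose samples overlapped. Col8a1, a short-chain collagen, was at 4.38, 3.74 and 7.28 TPM in Con and 0.629, 1.21 and 1.02 TPM in Dis (-1.93 ± 0.25, adjusted p = 0.00397). These 3 were kept in all alternatives.

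The fibrillar collagens did not separate. Col1a1 was at 204, 32.9 and 90.2 TPM in Con and 10.4, 82.3 and 18.9 TPM in Dis (adjusted p = 0.162), with the highest Con value in Con replicate 1 and the highest Dis value in Dis replicate 2. Of 23 collagens 3 fell and 1 rose, beside 3.19% and 14.6% of all genes, with 1 fall kept in all alternatives. Without Dis replicate 2, 11 fell, and without Con replicate 2, 5. With any 1 of Con replicate 1, Con replicate 3, Dis replicate 1, Dis replicate 3, NC replicate 1 or NC replicate 3 left out, 1 fell. Of 37 matrix glycoproteins and proteoglycans 5 fell and 1 rose, beside those same shares of all genes, and 3 falls were kept in all alternatives. There were 10 falls without Dis replicate 2 and 3 without Con replicate 1 or Con replicate 3.

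Markers of other cells moved with single samples more than with the groups. The 11 tendon markers, 10 of them tested, summed to 343 TPM in Con replicate 1 against 59.1 and 100.2 TPM in the other Con samples and 31.8 to 142 TPM in Dis, and Adipoq, which defines fat cells, was 24.7 TPM in Con replicate 1 against 3.57 to 7.84 TPM in the other 5 samples. None of the tendon markers was called, and 1 fell without Dis replicate 2. Of 17 macrophage markers none was called, and 5 fell without Dis replicate 2. Of 6 tested markers of neutrophils and the acute phase none was called, and the 19 listed summed to 270 TPM in Dis replicate 2 against 6.33 and 22.9 TPM in the other Dis samples and 7.56 to 18.96 TPM in Con. Of 13 markers of fibro-adipogenic cells 1 fell, Mfap5, which is also a matrix gene (3 without Dis replicate 2), and they summed to 456 to 941 TPM in Con and 638 to 1183 TPM in Dis. Schwann cell markers summed to 65.0 to 162 TPM in Con and 158 to 392 TPM in Dis, which overlap. Of 11 tested 4 were called higher, beside 14.6% of all genes, and none was kept in all alternatives. With median-ratio scaling none was called, and with the 6 samples alone 1 was. The number called was 0 without Con replicate 3 and 1 without Con replicate 2, Dis replicate 3 or NC replicate 1. It was 2 without NC replicate 2 or NC replicate 3. What part these cells had in the matrix and nerve results was not tested.

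Some of the largest rises were in genes of other kinds. Tmem100, a membrane protein of vessels that acts in BMP signals, was at 10.3, 27.8 and 28.5 TPM in Con and 70.5, 199.9 and 115 TPM in Dis (2.51 ± 0.44, adjusted p = 0.00904), with 8.15 to 13.4 TPM in NC. Shroom3, a regulator of cell shape, was at 0.277, 0.576 and 0.362 TPM against 2.72, 8.98 and 2.002 TPM (2.24 ± 0.42, adjusted p = 0.0109), and Ggt6, of the gamma-glutamyl transferase family, at 0.162, 0.570 and 0.640 TPM against 3.32, 4.64 and 2.36 TPM (2.04 ± 0.27, adjusted p = 0.00397). All 3 were kept in all alternatives. Igfn1, a Z-disc protein, was at 3.75, 4.35 and 6.53 TPM in Con and 27.2, 20.5 and 22.9 TPM in Dis (2.19 ± 0.48, adjusted p = 0.0175), a call lost without Con replicate 1 or Con replicate 2, and 1 naive sample reached 12.5 TPM where the others had 3.62 and 2.24.

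Reference genes differed in how steady they were. Of 15 housekeeping genes 2 fell and 1 rose, beside 3.19% and 14.6% of all genes. The rise was lost without Con replicate 1 or Con replicate 3. Pgk1, a glycolytic enzyme, fell from 726, 652 and 629 TPM to 464, 382 and 445 TPM (-0.64 ± 0.11, adjusted p = 0.0075), and Tfrc, the transferrin receptor, from 57.9, 81.4 and 61.7 TPM to 40.6, 21.6 and 24.9 TPM (-1.23 ± 0.22, adjusted p = 0.00999), both kept in all alternatives. Gapdh was at 139, 145 and 195 TPM in Con and 120, 191 and 905 TPM in Dis, with overlap. A list of transcripts that were also assayed by RT-qPCR had 11 tested members, of which 6 rose, 4 fell and Trim63 was not called. Only Csrp3, Hdac4 and Tgfbr1 were kept in all alternatives, and without Con replicate 1, 2 rose and 1 fell, while without Con replicate 3, 1 fell.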

How the data were processed

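Total RNA of gastrocnemius was sequenced in 9 samples, 3 per group. The authors deposited 1 table per sample with TPM values per gene, made from reads that were demultiplexed with bcl2fastq 2.20 and aligned with HISAT2 per the submitters' processing notes. The genome build was not given in the sources used here, and 54901 of 55487 identifiers had the coordinates of GENCODE M21 (GRCm38), which holds 55227 of them. Values of exactly 0.0001 TPM in the deposited tables were taken as 0. A gene was tested when 3 or more of the 6 Dis and Con samples reached 0.3 TPM, and the fit was made on log2(TPM + 0.5) with limma 3.58.1 in R 4.3.3 (linear model over all 9 samples in 3 groups, moderated with a mean trend, Benjamini-Hochberg adjustment over all genes tested, threshold 0.05). A log2 fold change on this scale understates the change of low genes. Errors of fold changes are standard errors. The script was checked on made-up data with known answers. Single values were compared with exact permutation tests over the 6 samples. Python 3.11.15, pandas 2.3.3, numpy 2.4.6, scipy 1.17.1 and matplotlib 3.10.9 were used.

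TPM holds no counts, so depth is unknown and no counting interval can be given. Nothing in the labels says which Con and Dis samples share a mouse, so samples were not paired. Deviations from the group means of same-numbered samples had correlations of -0.02, -0.02 and 0.02. Every combination of a Dis and a Con sample lay between -0.08 and 0.09. With 3 samples a group, such correlations cannot tell which samples share a mouse. P-values measure the spread between these samples.

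Genes named were picked from a longer set made by a rule, and many genes of that set are not described. The set holds the 15 largest rises and falls among called genes with groups apart and a mean of at least 2 TPM. It also holds the 10 largest gains and losses in TPM and up to 4 called members each way of each list. Up to 3 defining members of each list, the transcripts measured by RT-qPCR and housekeeping genes complete it. Numbered predicted genes are only counted under that rule, so Gm28653 was chosen after its values were seen. The members, lists and rules were chosen with earlier results of these data known. Alternatives changed the pseudocount, filter, scaling, trend, weights and samples. Promoter and miRNA sequences are from RefSeq, GRCm38.p6, matched by symbol or name.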

Additional observations from a re-analysis of the deposited data

How the results depend on the processing

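The 2797 calls depended most on scaling and on the samples fitted. They were 1197 with median-ratio size factors (435 higher, 762 lower), 1240 with quantile normalization (574 higher, 666 lower) and 877 with the 6 Dis and Con samples alone (660 higher, 217 lower). With TPM rescaled without mitochondrial genes 1414 were higher. An alternative chosen after seeing the data, the 6 samples with median-ratio size factors, gave 360 (99 higher, 261 lower). Leaving out 1 sample gave 736 to 2968 calls, 543 to 2498 higher and 193 to 582 lower, with the fewest without Con replicate 1. That range includes the 6 samples without Dis replicate 2, also chosen after seeing the data, with 1010 (726 higher, 284 lower). A fit of the 6 samples with the number as a replicate block gave 205 calls (113 higher, 92 lower), 181 of them shared with the 6-sample fit, and 73 of the 268 called named genes kept their call in it. The samples share only a number, so this is no paired comparison. The median log2 fold change of all genes, 0.20 (SD over Dis samples 0.11), was 0.078 with no filter on low values, 0.028 with quantile normalization and 0.0087 with median-ratio size factors, with all 9 samples or 6. Among 5887 values of called named genes under 22 alternatives, 4228 stayed past the threshold, 1659 did not and 0 changed direction. The cause was not tested. With 3 samples a group, exact tests cannot go below p = 0.1.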

Other observations

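A predicted gene was listed only in the immobilized leg. Gm20716, on chromosome 2, was at 3.86, 4.74 and 5.95 TPM in Dis and listed at 0 in all 3 Con and all 3 NC samples. It overlaps Dpm1 and Adnp. Dpm1, an enzyme subunit of sugar donor synthesis, rose from 29.0, 29.4 and 32.9 TPM to 50.5, 59.9 and 48.9 TPM (log2 fold change 0.79 ± 0.12, limma adjusted p = 0.00508), while Adnp was at 12.6 to 13.8 TPM in Con and 12.3 to 12.99 TPM in Dis (adjusted p = 0.7). Reads of overlapping genes can be hard to assign. In the other direction, Gm47328 was at 0.899, 0.858 and 0.707 TPM in Con, 0.485 to 0.596 TPM in NC and listed at 0 in the 3 Dis samples. These genes were chosen after their values were seen.

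Among noncoding RNAs, Hectd2os was at 20.2, 33.8 and 27.0 TPM in Con and 2.84, 5.99 and 4.197 TPM in Dis (-2.53 ± 0.30, limma adjusted p = 0.00337), with 9.23 to 18.2 TPM in NC between the legs. E130218I03Rik, which is annotated as protein coding, shows how far 1 sample can reach. It was at 0.036, 0.156 and 0.217 TPM in Con and 2.75, 75.8 and 1.38 TPM in Dis, with the highest value in Dis replicate 2. Its log2 fold change was 3.62 ± 1.1 (limma adjusted p = 0.04997). That call was lost with the 6 samples alone (adjusted p = 0.113), with median-ratio scaling (adjusted p = 0.0782) and without any 1 Con or NC replicate.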
